A study of Mus musculus with 4 samples.

Results

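The 10 genes described here are *Egr1*, *Egr2*, *Egr3*, *Klf2*, *Klf4*, *Klf6*, *Nr4a1*, *Ier2*, *Ier3* and *Btg2*, immediate-early genes outside the AP-1 family. They are not all such genes, and were chosen by name from a table of 55356 mouse genes with earlier results of these data known. Shares of all genes printed beside their counts are therefore a description and not a test. All 10 were found once by symbol, and all had a mean of at least 10 normalized counts over the libraries. RNA was sequenced from macrophages that were grown from bone marrow of MK2-KO mice, immortalized, and transduced with a viral GFP vector without insert (iMK2-KO+GFP) or with MK2 (iMK2-KO+MK2) and sorted for GFP. Both lines carry the knockout of the gene for MK2, although the labels give the genotype of iMK2-KO+MK2 cells as wt, and in the rescued line MK2 comes from the viral vector. Both lines were sampled untreated (UT) and after 1 h of murine IL-1α at 5 ng/mL, giving 4 libraries, 1 for each condition.

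The deposited values, called normalized counts here, were taken to be rounded gene counts after division by size factors, a reading of the values and notes that the sources do not spell out. They summed to between 24891906 and 25733071 per library. Because no condition has a second library, differences could not be checked against replicates and no p-value is given. Each comparison is the log2 ratio of values to which a pseudocount of 1 was added. The range in parentheses after a ratio is its 95% counting interval (Clopper-Pearson), with 1 normalized count taken as 1 read, and it covers counting error only. In this text a gene rose or fell where that interval left out 0, and a gene is called where its ratio reached 2-fold, a log2 ratio of 1. After a difference between responses, the range is instead a conditional exact 95% interval of an odds ratio. The background for each count is the share of the 12483 genes with a mean of at least 10 that were called in the same comparison. Normalized counts of *Mapkapk2*, which encodes MK2, were 561 in UT and 1585 in IL-1α-treated iMK2-KO+GFP cells against 38357 and 38141 in iMK2-KO+MK2 cells, in the direction of the labels. All 8 macrophage markers checked, among them *Csf1r*, *Cd68* and *Lyz2*, lay between 364 and 64591 normalized counts in every library. None of the 18 markers of T cells, B cells, fibroblasts, epithelial cells, endothelial cells and neutrophils exceeded 5.

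Immediate-early genes are transcribed within minutes of a stimulus without prior protein synthesis, from promoters that hold sites for factors already present in the cell, such as serum response factor (SRF), CREB and NF-κB. Their mRNAs are often short-lived because AU-rich elements in the 3′ untranslated region recruit decay factors. In macrophages the p38 kinase and its substrate MK2 are known to act on this second step, since MK2 phosphorylates the decay factor tristetraprolin. EGR and KLF proteins are zinc finger transcription factors that bind GC-rich DNA, NR4A1 is an orphan nuclear receptor, and the remaining 3 genes encode a nuclear protein (IER2), a regulator of cell survival (IER3) and an antiproliferative cofactor of mRNA deadenylation (BTG2).

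After 1 h of IL-1α, 5 of the 10 genes rose in iMK2-KO+GFP cells, namely *Ier3*, *Btg2*, *Egr2*, *Klf6* and *Klf2*, and the first 4 reached 2-fold. None fell or was called lower. Over all genes tested, 20% rose and 12.3% fell in this comparison, and 2.25% were called higher and 1.59% lower. In iMK2-KO+MK2 cells only *Ier3* and *Klf6* rose and none fell, where 11.4% of all genes rose and 8.23% fell. Neither reached 2-fold, as 0.889% of all genes did. *Egr2* was called lower there, at 6 against 14 normalized counts, with an interval that included 0, and 1.03% of all genes were called lower. The median log2 response of the 10 genes was 0.74 in iMK2-KO+GFP cells and 0.07 in iMK2-KO+MK2 cells, beside 0.01 in both lines over all genes tested. Together the 10 genes had 4901 normalized counts in UT iMK2-KO+GFP cells and 13020 after IL-1α, against 4200 and 4788 in iMK2-KO+MK2 cells. Most of the normalized counts gained in iMK2-KO+GFP cells came from *Ier3* (3605) and *Klf6* (3301), followed by *Btg2* (987) and *Klf2* (177), and each of the other 6 changed by between -18 and 24.

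**Figure D1:**
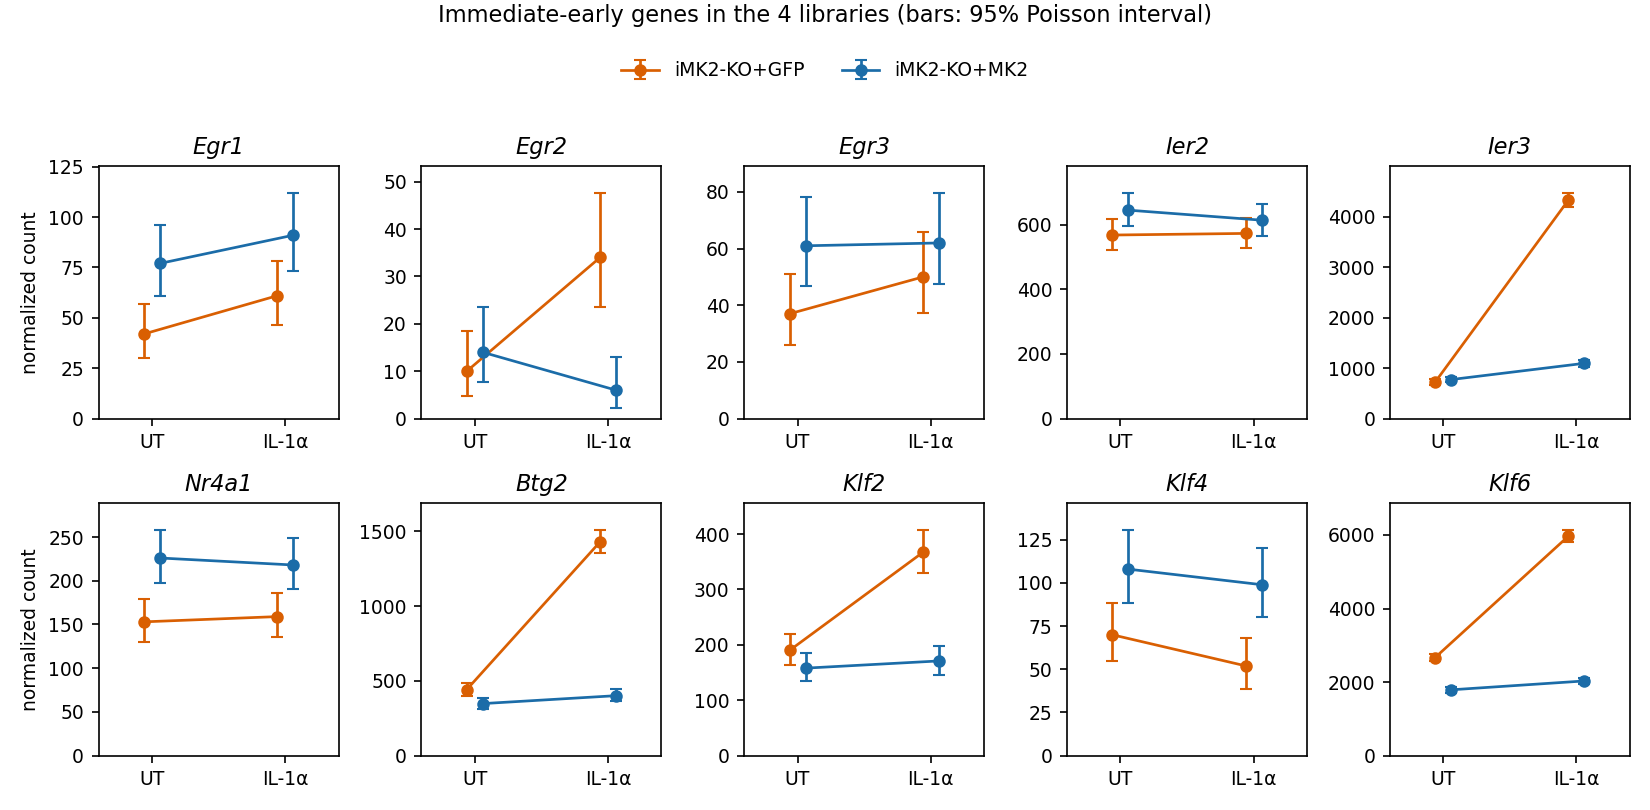
Normalized counts of the 10 genes (y axis, starting at 0, a different scale in each panel) in untreated (UT) and IL-1α-treated cells, with iMK2-KO+GFP in orange and iMK2-KO+MK2 in blue, 1 library per point and bars for the 95% Poisson interval. *Ier3*, *Btg2*, *Klf2*, *Klf6* and *Egr2* were highest in the IL-1α-treated iMK2-KO+GFP library. *Egr1*, *Egr3*, *Nr4a1*, *Klf4* and *Ier2* had lower values in iMK2-KO+GFP than in iMK2-KO+MK2 cells in both conditions. After IL-1α the differences of *Egr3* and *Ier2* were within counting error.

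Without a stimulus, no gene of the 10 reached a 2-fold difference between the lines, where 3.51% of all genes were called higher and 5.26% lower in iMK2-KO+GFP cells. The lines differed beyond counting error for 7 genes, beside 30.8% of all genes that were higher and 26.9% that were lower by this measure, so that such a count is not a result about the 10. *Egr1*, *Egr3*, *Klf4*, *Nr4a1* and, slightly, *Ier2* were lower in UT iMK2-KO+GFP cells, and *Klf6* and *Btg2* were higher. *Egr2*, *Ier3* and *Klf2* differed within counting error. After IL-1α, 5 genes were called higher in iMK2-KO+GFP cells, the same 5 that rose there, and none lower, beside 4.16% and 5.57% of all genes. *Egr1*, *Klf4* and *Nr4a1* stayed lower in iMK2-KO+GFP cells beyond counting error, and *Egr3* and *Ier2* differed within it. By this measure 5 of the 10 were higher and 3 lower, beside 33.7% and 26.3% of all genes. With scaling to *Gapdh* the ratio of *Klf2* was 0.996, just short of 2-fold. The median log2 ratio of the 10 genes between the lines was -0.32 in UT cells and 0.50 after IL-1α, against 0.02 and 0.03 over all genes tested. These comparisons and the IL-1α responses use the same 4 libraries and are not independent of each other.

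**Figure D2:**
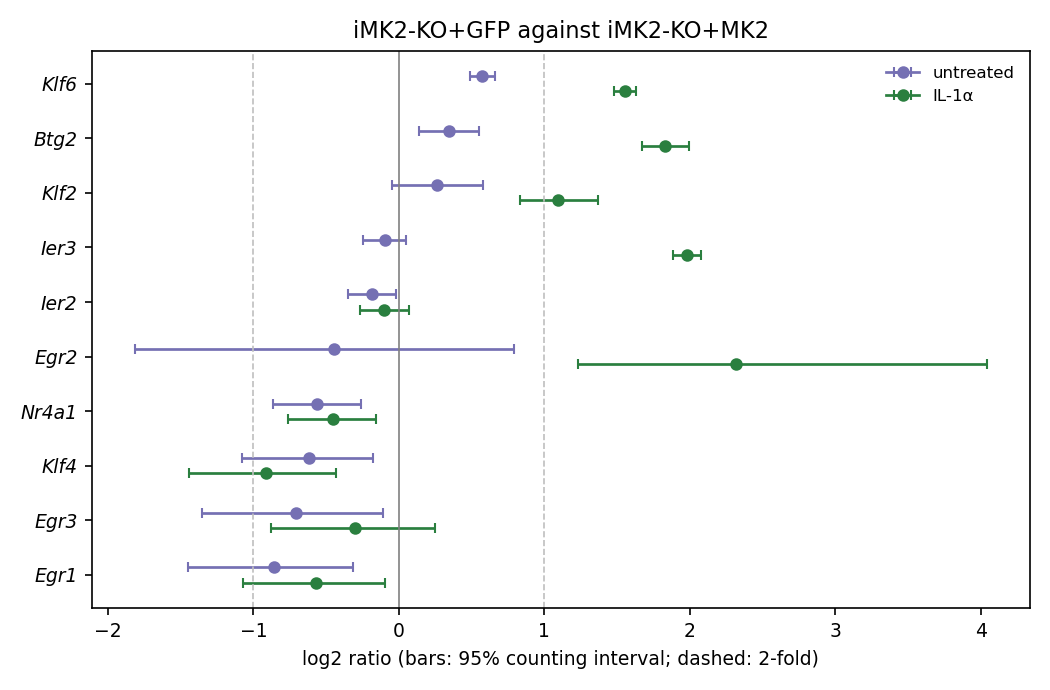
Log2 ratio of iMK2-KO+GFP to iMK2-KO+MK2 cells (x axis) for each of the 10 genes (y axis), untreated in purple and after IL-1α in green, with 95% counting intervals as bars and dashed lines at 2-fold. All untreated ratios lie inside the dashed lines, and after IL-1α 5 genes lie beyond 2-fold on the higher side, from 1.10 for *Klf2* to 2.32 for *Egr2*.

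The 3 EGR factors had low counts. *Egr1*, the founding member that is induced by growth factor and stress signals through SRF, lies on chromosome 18 from 34992876 to 34998037 in the deposited table. Its normalized counts were 42 in UT and 61 in IL-1α-treated iMK2-KO+GFP cells, and 77 and 91 in iMK2-KO+MK2 cells. Both iMK2-KO+GFP libraries were below both iMK2-KO+MK2 libraries. The log2 ratio between the lines was -0.86 (-1.45 to -0.31) in UT cells and -0.57 (-1.07 to -0.09) after IL-1α. The responses to IL-1α, 0.53 (-0.05 to 1.14) and 0.24 (-0.21 to 0.70), were not detectable at this depth.

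*Egr3*, which is closely related to *Egr1* and known from muscle spindles and T cell anergy, lies on chromosome 14 from 70314652 to 70320063. It had 37 and 50 normalized counts in iMK2-KO+GFP cells (UT and IL-1α) and 61 and 62 in iMK2-KO+MK2 cells. The line difference of -0.71 (-1.35 to -0.11) in UT cells was beyond counting error, and that of -0.30 (-0.88 to 0.25) after IL-1α was within it. The *Egr3* responses were 0.42 (-0.21 to 1.09) in iMK2-KO+GFP and 0.02 (-0.51 to 0.56) in iMK2-KO+MK2 cells.

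*Egr2* (chromosome 10, 67371305 to 67378018), a factor for myelination that is also expressed in myeloid cells, had the lowest counts of the set. They were 10 in UT and 34 in IL-1α-treated iMK2-KO+GFP cells, and 14 and 6 in iMK2-KO+MK2 cells. The IL-1α-treated iMK2-KO+GFP library was the highest and the IL-1α-treated iMK2-KO+MK2 library the lowest. The *Egr2* response was a rise of 1.67 (0.72 to 2.95) in iMK2-KO+GFP cells, and in iMK2-KO+MK2 cells it was -1.10 (-2.89 to 0.25). The difference between the *Egr2* responses, 2.77, had a conditional exact counting interval of 1.08 to 4.97. After IL-1α the ratio between the lines was 2.32 (1.23 to 4.05), while in UT cells it was -0.45 (-1.82 to 0.79). With at most 34 normalized counts in a library, these intervals span a wide range of sizes.

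Among the KLF factors, *Klf6* (chromosome 13, 5911481 to 5920393), which promotes inflammatory gene expression in macrophages, was the most abundant. It had 2667 normalized counts in UT and 5968 in IL-1α-treated iMK2-KO+GFP cells, and 1790 and 2031 in iMK2-KO+MK2 cells. The order of the 4 libraries was the same as in *Btg2*, with iMK2-KO+GFP above iMK2-KO+MK2 in both conditions. *Klf6* rose in both lines, by 1.16 (1.10 to 1.23) in iMK2-KO+GFP and by 0.18 (0.09 to 0.27) in iMK2-KO+MK2 cells. Its basal ratio between the lines was 0.57 (0.49 to 0.66) and was 1.55 (1.48 to 1.63) after IL-1α.

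*Klf2* (chromosome 8, 73072877 to 73075500), known for keeping endothelial and myeloid cells quiescent, had 190 and 367 normalized counts in iMK2-KO+GFP cells and 158 and 171 in iMK2-KO+MK2 cells. Only the IL-1α-treated iMK2-KO+GFP library stood above the others. The response of *Klf2* was 0.95 (0.69 to 1.21) in iMK2-KO+GFP cells, just short of 2-fold, and 0.11 (-0.21 to 0.44) in iMK2-KO+MK2 cells. The UT ratio between the lines, 0.26 (-0.05 to 0.58), was within counting error.

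*Klf4* (chromosome 4, 55527143 to 55532466), a factor of monocyte differentiation and of pluripotency, went the other way. Its normalized counts were 70 and 52 in iMK2-KO+GFP cells and 108 and 99 in iMK2-KO+MK2 cells, so that both libraries of iMK2-KO+GFP cells were the lower ones. The ratio between the lines was -0.62 (-1.08 to -0.18) in UT cells and -0.92 (-1.44 to -0.43) after IL-1α. The *Klf4* responses, -0.42 (-0.98 to 0.11) and -0.12 (-0.53 to 0.28), were both within counting error.

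*Nr4a1* (chromosome 15, 101152150 to 101172676), which encodes the nuclear receptor Nur77 that restrains inflammation in macrophages, was at 153 and 159 normalized counts in iMK2-KO+GFP and at 226 and 218 in iMK2-KO+MK2 cells. It differed between the lines and hardly at all with IL-1α. The ratios between the lines were -0.56 (-0.87 to -0.26) in UT cells and -0.45 (-0.76 to -0.15) after IL-1α, and the responses were 0.06 (-0.27 to 0.39) and -0.05 (-0.33 to 0.22). A similar pattern on a smaller scale was seen for *Ier2* (chromosome 8, 85387960 to 85389483), with 568 and 573 normalized counts in iMK2-KO+GFP and 645 and 614 in iMK2-KO+MK2 cells. Its UT ratio between the lines was -0.18 (-0.35 to -0.02). Unlike that of *Nr4a1*, its ratio after IL-1α, -0.10 (-0.27 to 0.07), was within counting error. The *Ier2* responses, 0.01 (-0.16 to 0.18) and -0.07 (-0.23 to 0.09), were within counting error, and the sign of the first one turned to -0.03 with scaling to library totals.

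*Ier3* (chromosome 17, 36132576 to 36133815), also known as IEX-1 and a target of NF-κB, had the highest response of the 10. Its normalized counts were 722 in UT and 4327 in IL-1α-treated iMK2-KO+GFP cells, and 773 and 1095 in iMK2-KO+MK2 cells. The UT libraries differed within counting error, at -0.10 (-0.25 to 0.05), and the treated ones well beyond it, at 1.98 (1.89 to 2.08). *Ier3* rose 5.99-fold in iMK2-KO+GFP cells, a log2 ratio of 2.58 (2.47 to 2.70), which ranked 57 from the top among all genes tested. In iMK2-KO+MK2 cells it rose 1.42-fold, by 0.50 (0.37 to 0.64), at rank 425. The difference between the *Ier3* responses was 2.08 (1.90 to 2.26).

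*Btg2* (chromosome 1, 134002908 to 134006858), which is also a p53 target, had 442 and 1429 normalized counts in iMK2-KO+GFP cells and 348 and 401 in iMK2-KO+MK2 cells. The treated iMK2-KO+GFP library was far above the rest. *Btg2* rose by 1.69 (1.54 to 1.85) in iMK2-KO+GFP cells, at rank 109, and stood at 0.20 (-0.01 to 0.42) in iMK2-KO+MK2 cells. Its UT ratio between the lines was 0.34 (0.14 to 0.55).

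**Figure D3:**
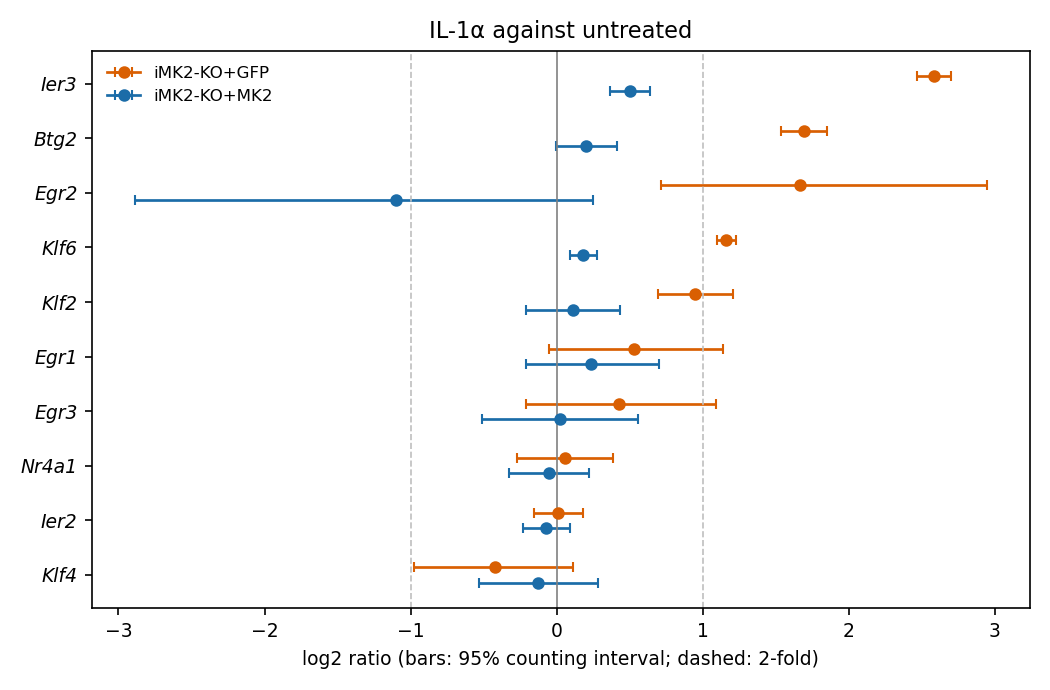
Log2 ratio of IL-1α-treated to untreated cells (x axis) for each of the 10 genes (y axis) in iMK2-KO+GFP (orange) and iMK2-KO+MK2 cells (blue), with 95% counting intervals as bars and dashed lines at 2-fold. In iMK2-KO+GFP cells *Ier3*, *Btg2*, *Egr2* and *Klf6* lie beyond 2-fold and *Klf2* at 0.95. In iMK2-KO+MK2 cells only *Egr2* lies beyond a dashed line, at -1.10, with a wide interval that includes 0.

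The size of the response differed between the lines by at least 2-fold for *Egr2*, *Ier3* and *Btg2*, beside 3.12% of all genes, and for none in the other direction, beside 2.5%. *Klf6* and *Klf2* came next, with differences of 0.98 (0.87 to 1.09) and 0.83 (0.42 to 1.25). For *Egr1*, *Egr3*, *Ier2*, *Nr4a1* and *Klf4* the difference lay between -0.30 and 0.40 with intervals that included 0. With 1 library per condition the differences were not tested against variation between cultures.

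Levels of different genes can be compared only per length. Divided by the length of the GENCODE M21 transcript with the longest 3′ untranslated region, the level in UT iMK2-KO+GFP cells was 638 normalized counts per kb for *Ier3* and 631 for *Klf6*, followed by 373 for *Ier2*, 161 for *Btg2* and 103 for *Klf2*. *Nr4a1* was at 59.9 and *Klf4* at 23.1 normalized counts per kb, and the EGR factors were lowest, at 9.39 for *Egr3*, 9.37 for *Egr1* and 3.75 for *Egr2*. After IL-1α the level per kb in iMK2-KO+GFP cells was 3826 for *Ier3* and 1413 for *Klf6*. *Ier3* was thus similar to *Klf6* per length in these cells before treatment and above it afterwards.

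AU-rich elements were counted because they are the part of an mRNA on which the MK2 pathway is known to act. In the 3′ untranslated regions of the same transcripts, the pentamer ATTTA was found in 9 of the 10 genes, beside 70.1% of 10711 genes tested, and *Ier2* was the exception. The longer form TATTTAT was present in *Ier3* (4 copies), *Klf6* (2 copies), *Btg2* and *Klf2* (1 copy each), beside 29.9% of the genes tested. At 4 of the 10 genes this is near the share of all genes, so the count is not a result about the 10. These 4 genes are among the 5 that rose in iMK2-KO+GFP cells, and *Egr2*, the other one, held 3 copies of ATTTA and none of TATTTAT. Across all genes tested, 2.47% of those with TATTTAT and 1.56% of those without it were called higher after IL-1α in iMK2-KO+GFP cells, so that most genes with this motif were not called. Genes with and without the motif were not matched for the length of the 3′ untranslated region. A match describes the sequence and was not tested as a cause. For each of the 4 genes the 30 bases with most copies of the motif, or the first such stretch, are shown on the sense strand in the DNA letters of GENCODE M21 (GRCm38), with TATTTAT in capitals:
Ier3: gtgtctaattaaTATTTATgTATTTATgta
Klf6: agctacgtctctTATTTATgccttgaggac
Btg2: aaaatgaagagcTATTTATacatgtttttt
Klf2: caaacagactgcTATTTATtggaccttagg
The stretch in *Ier3* starts at base 170 of a 3′ untranslated region of 613 bases, and it holds a pair of copies separated by a single base.

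Promoter sequences from RefSeq (GRCm38.p6) were given for 7 of the 10 genes, and not for *Egr1*, *Egr3* and *Ier2*. The 250 bases before each start site were searched on both strands. A gene was counted where any of its start sites had a match, whereas the shares given beside it count single promoters. The 2 measures differ most for *Egr2*, which has 5 listed start sites. A κB site was found in *Ier3* alone, where 3.9% of 32851 promoters hold one. The cyclic AMP response element TGACGTCA was found in *Btg2* alone, beside 1.55% of promoters, and an SRF site (CArG box) in *Egr2* alone, beside 1.47%. A match to the EGR site GCGNGGGCG was found in *Nr4a1*, *Btg2*, *Klf2* and *Klf4*, beside 4.7% of promoters, and in *Nr4a1*, *Klf2* and *Klf4* it shares bases with a GC box (GGGCGG), as the κB site of *Ier3* does. All 7 genes and 32.7% of promoters hold a GC box. CACCC, the core that KLF proteins bind, was present in *Egr2* and *Klf2* and in 52% of promoters. *Ier3*, *Btg2* and *Egr2* thus each held a different one of the first 3 motifs. *Klf2*, *Klf4*, *Klf6* and *Nr4a1* held none of those 3 in this window. These matches describe the sequence, and a link between them and the responses was not tested.

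The promoters of *Ier3*, *Btg2* and *Egr2* are shown because these genes differed most in their IL-1α response between the lines. Each is written 5′ to 3′ on the strand of the gene up to the base before the start site, with the κB site (*Ier3*), the cyclic AMP response element and the EGR site (*Btg2*) and the CArG box (*Egr2*, the third of 5 listed start sites) in capitals. The positions are chr17:35821463-35821712 (plus strand) for *Ier3*, chr1:134079156-134079405 (minus strand) for *Btg2* and chr10:67537619-67537868 (plus strand) for *Egr2*:
Ier3: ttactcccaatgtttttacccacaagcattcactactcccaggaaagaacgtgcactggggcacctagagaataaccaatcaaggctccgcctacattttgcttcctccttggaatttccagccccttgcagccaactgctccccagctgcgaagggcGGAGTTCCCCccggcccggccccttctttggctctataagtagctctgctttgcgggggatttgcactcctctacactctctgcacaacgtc
Btg2: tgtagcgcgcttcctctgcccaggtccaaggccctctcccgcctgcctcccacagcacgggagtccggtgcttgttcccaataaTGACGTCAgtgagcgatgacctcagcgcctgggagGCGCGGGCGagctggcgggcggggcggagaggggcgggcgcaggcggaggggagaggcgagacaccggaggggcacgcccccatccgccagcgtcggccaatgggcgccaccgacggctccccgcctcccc
Egr2: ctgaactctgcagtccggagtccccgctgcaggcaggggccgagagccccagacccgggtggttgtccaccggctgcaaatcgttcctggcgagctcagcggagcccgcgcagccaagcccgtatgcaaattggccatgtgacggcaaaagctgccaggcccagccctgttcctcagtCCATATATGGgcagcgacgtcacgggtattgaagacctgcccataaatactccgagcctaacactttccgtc
Counted from the start site, the κB site of *Ier3* lies at -92 to -83, the cyclic AMP response element of *Btg2* at -166 to -159 and the CArG box of *Egr2* at -72 to -63. Of the 5 start sites of *Egr2*, 4 have a CArG box in their window.

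Other members of these families were described in the same way. Of 24 relatives (other EGR, NR4A, IER, BTG, TOB and KLF genes), 13 had a mean of at least 10. None of them was called in either IL-1α response, but at the shares of all genes (2.25% and 1.59% in iMK2-KO+GFP, 0.889% and 1.03% in iMK2-KO+MK2 cells) fewer than 1 of 13 would be. Their median responses were 0.01 in iMK2-KO+GFP and 0.04 in iMK2-KO+MK2 cells. *Klf7* had the largest response, with 688 and 1219 normalized counts in iMK2-KO+GFP cells, a rise of 0.82 (0.69 to 0.96), against 855 and 882 in iMK2-KO+MK2 cells. *Klf10*, a factor induced by TGF-β, fell in iMK2-KO+GFP cells from 622 to 423 normalized counts, at -0.56 (-0.74 to -0.38), and stood at 653 and 638 in iMK2-KO+MK2 cells. *Tob1*, an antiproliferative relative of *Btg2*, also fell in iMK2-KO+GFP cells, at -0.46 (-0.59 to -0.33). *Nr4a2* was within counting error at 37 to 49 normalized counts, *Nr4a3* did not exceed 5, and *Egr4* was at 0 in 3 libraries and at 1 in the fourth.

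*Klf9*, a factor that responds to glucocorticoids, was the only relative called between the lines. Over all genes, 5.26% were called lower and 3.51% higher in UT iMK2-KO+GFP cells, and 5.57% and 4.16% after IL-1α. Such a count is therefore not a result about the relatives. *Klf9* was called lower in iMK2-KO+GFP cells in both conditions. It had 33 and 38 normalized counts in iMK2-KO+GFP and 604 and 691 in iMK2-KO+MK2 cells. The log2 ratio was -4.15 in both conditions (-4.75 to -3.69 and -4.70 to -3.71), with no detectable difference between the responses at 0.00 (-0.72 to 0.75). *Klf9* was thus lower in both iMK2-KO+GFP libraries, as *Klf4* was.

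The factors and kinases that act on immediate-early genes were described from lists so small that the shares of all genes, 0.889% to 5.57% by comparison, would give few calls. None of 2 EGR corepressors, 6 expressed members of the SRF group, 12 kinases of the ERK and MSK pathways and 6 MEF2 and CREB factors was called in any of the comparisons. *Nab1*, an EGR corepressor, had 2074 and 2490 normalized counts in iMK2-KO+GFP cells, a rise of 0.26 (0.18 to 0.35), and 2119 and 2164 in iMK2-KO+MK2 cells. *Nab2*, which is itself an EGR target, was at 520 and 477 against 564 and 534. *Srf* rose in iMK2-KO+GFP cells from 1300 to 1521, by 0.23 (0.12 to 0.33), and was at 1139 and 1171 in iMK2-KO+MK2 cells. *Elk3*, a partner of SRF, was lower in iMK2-KO+GFP cells in both conditions, at 449 and 443 against 808 and 857 normalized counts. Of the 7 expressed SRF target genes of the actin cytoskeleton none was called either, and the median log2 responses were -0.0060 in iMK2-KO+GFP and -0.04 in iMK2-KO+MK2 cells.

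Other immediate-early genes were described from a list chosen by function. Of 24 such genes, 21 had a mean of at least 10, and 8 of these were called higher and 1 lower after IL-1α in iMK2-KO+GFP cells, beside 2.25% and 1.59% of all genes, with a median of 0.73. In iMK2-KO+MK2 cells none was called, beside 0.889% and 1.03%, with a median of 0.09. The largest rise in iMK2-KO+GFP cells was that of *Maff*, a small MAF factor, from 26 to 318 normalized counts, 3.56 (3.03 to 4.25), against 40 and 54 in iMK2-KO+MK2 cells. *Pim1*, a survival kinase, followed with 348 and 2269 against 226 and 273. *Zfp36*, which encodes tristetraprolin, had 641 and 2569 normalized counts in iMK2-KO+GFP cells, a rise of 2.00 (1.88 to 2.13), and 788 and 814 in iMK2-KO+MK2 cells. The gene called lower was *Gadd45g*, at 17 and 8, within counting error. These genes were chosen with results of these data known.

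**Figure D4:**
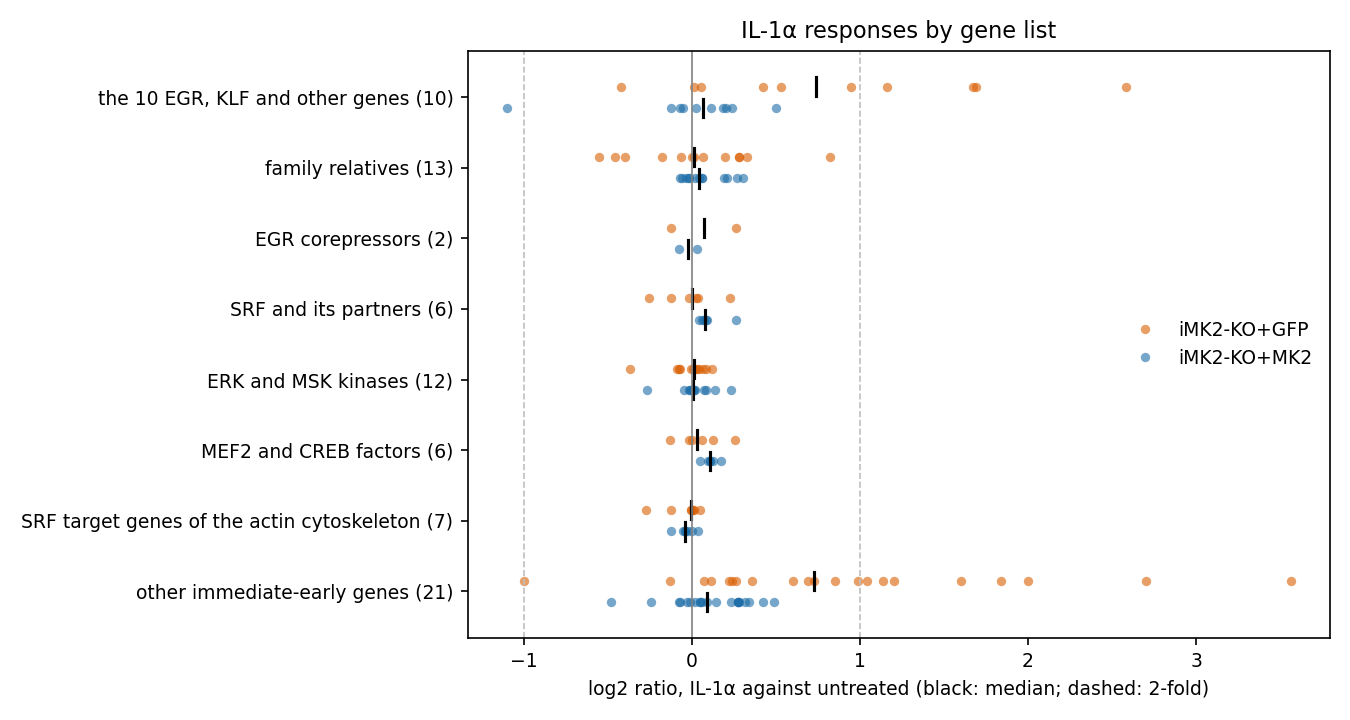
Log2 ratio of IL-1α-treated to untreated cells (x axis) for each gene with a mean of at least 10 in 8 lists (y axis, number of genes in parentheses), iMK2-KO+GFP in orange and iMK2-KO+MK2 in blue, with the median as a black bar and dashed lines at 2-fold. The 10 genes described here and the other immediate-early genes spread to the right in iMK2-KO+GFP cells, with medians of 0.74 and 0.73, while the other lists stay between the dashed lines.

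The genes most like each of the 10 were sought by the Euclidean distance between log2 profiles over the 4 libraries, after subtracting each gene's mean, for the 7 of the 10 genes whose profile spanned at least 1. With 4 libraries such likeness is loose. The nearest genes to *Ier3* were *Zc3h12c* and *Ccl4* (distances 0.31 and 0.34), those to *Btg2* *Pdgfb* and *Kcnj2* (0.07 and 0.16), those to *Klf6* *Lilrb4b* and *Tnfrsf1b* (0.12 and 0.13) and those to *Klf2* *Sqstm1* and *Rhbdf2* (0.07 and 0.08). *Adora2b* and *Birc3* were nearest to *Egr2*, though farther away, at 0.65 and 0.66. *Egr1* was nearest to *Ncoa4-ps* and *Ppp1r12b* (0.11 each) and *Klf4* to *Rnf150* and *Taf9* (0.06 each). For *Klf4*, 178 genes lay within 0.3, and for *Ier3* and *Egr2* none did.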

How the data were processed

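RNA of 4 cultures was sequenced, 1 library for each condition. The deposited values are whole numbers with similar library sums and were treated as a score, not as raw counts. They were taken to be gene counts that the authors divided by DESeq2 size factors and rounded, which the sources do not spell out. The labels describe poly(A) selection, a strand-specific kit and paired reads, whereas the study's methods describe ribosomal RNA depletion and single reads. The submitters' processing notes name DESeq2 and GRCm38 without a version, and column names carry the salmon output suffix quant sf. Only 2.88% of shared gene IDs start at their GENCODE M21 (GRCm38) position, so gene positions are printed as in the table and do not match the named build.

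Log2 ratios of value + 1 were computed for 5 comparisons in Python 3.11.15 with pandas 2.3.3, numpy 2.4.6, scipy 1.17.1 and matplotlib 3.10.9, with genes kept at a mean of 10 or more (12483 genes). A single library per condition left no test. Counting intervals of ratios were exact (Clopper-Pearson, 95%), and those of differences between responses were conditional exact intervals of an odds ratio. Ratios and Clopper-Pearson intervals were tested on simulated Poisson counts, which hold no variation between cultures. The intervals of the differences were not tested. Genes were described whose names were on the list of 10, and always *Nab1*, *Nab2*, *Srf*, *Egr4*, *Nr4a2* and *Nr4a3*. From each other list, at most 3 genes with the largest ratios in a comparison were added. *Gadd45g* was named outside this rule, as the gene of its list that was called lower. The 10 genes and all lists were chosen with earlier results of these data known. Sequence motifs and neighbouring genes were added later. Alternatives were other pseudocounts, minimum means, thresholds and scalings.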

Additional observations from a re-analysis of the deposited data

Results flagged for a closer look

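Among the 10 genes, the IL-1α response had opposite signs in the 2 lines for 3 genes. For *Egr2* it was 1.67 in iMK2-KO+GFP and -1.10 in iMK2-KO+MK2 cells, a difference of 2.77 (1.08 to 4.97) that rests on 10, 34, 14 and 6 normalized counts. For *Nr4a1* the difference was 0.11 (-0.33 to 0.54), and for *Ier2* it was 0.0836 (-0.15 to 0.32), both within counting error.

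The ratio between the lines had opposite signs before and after IL-1α for *Egr2*, at -0.45 and 2.32, which is the same difference of 2.77. The same held for *Ier3*, at -0.10 and 1.98, a difference of 2.08 (1.90 to 2.26), where the first ratio was within counting error. With 1 library for each condition, these differences were not tested against variation between cultures.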

How the results depend on the processing

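No paired analysis was possible because each condition has 1 library, and for the same reason no replicate could be left out. Of 300 log2 ratios of the 10 genes (50 ratios under 6 other pseudocounts or scalings), 298 stayed inside their counting interval. The other 2 were those of *Ier3* and *Klf6* between the lines after IL-1α with scaling to *Gapdh*, at 1.88 and 1.45. The largest shift of a median of all genes under a scaling, -0.101, was smaller than the width of most intervals. Staying inside an interval is therefore a weak check. The *Ier2* response in iMK2-KO+GFP cells changed sign, from 0.01 to between -0.03 and -0.0086, under 4 scalings, within counting error.

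Counts of called genes moved with the threshold. Shares of all genes by the counting interval are given above. No share was computed at 1.5-fold, at 3-fold, with a pseudocount of 5, with scaling to *Gapdh* or with 0.5 reads. Whether the counts under those settings are unusual was therefore not tested, and they only describe the listed genes. In UT cells 3 genes were lower in iMK2-KO+GFP cells at 1.5-fold, and by the counting interval 2 were higher and 5 lower. After IL-1α, 3 were higher in iMK2-KO+GFP cells at 3-fold and 4 with scaling to *Gapdh*, where *Klf2* ended at 0.996, and 1 was lower (*Klf4*) at 1.5-fold or with scaling to *Gapdh*, and 3 by the interval. In iMK2-KO+MK2 cells 2 genes rose by the interval, and the 1 lower call (*Egr2*) became 0 with a pseudocount of 5, at 3-fold or by the interval. The response differed by 1.5-fold for 5 genes. With 1 normalized count taken as 0.5 reads, 4 rather than 7 genes differed between the UT lines beyond counting error. With a minimum mean of 1 or 50, the share of all genes called higher after IL-1α in iMK2-KO+GFP cells was 6.90% or 1.38%, and in iMK2-KO+MK2 cells 5.41% or 0.236%. Scaling to *Gapdh* moved the median of all genes between the lines after IL-1α from 0.03 to -0.07, a shift of -0.101, and no other scaling moved a median by over 0.1. The low counts of *Egr1*, *Egr2*, *Egr3* and *Klf4* limit what can be detected.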

Other observations

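The 20 tested genes that lie nearest to the 10 genes, 307 to 1246457 bases away in the deposited table, were looked at after the values were known. Of these 20, 2 were called higher and 1 lower after IL-1α in iMK2-KO+GFP cells, all with few counts, beside 2.25% and 1.59% of all genes, and none in iMK2-KO+MK2 cells. Between the lines, 4 of the 20 were called lower in UT and 3 in IL-1α-treated iMK2-KO+GFP cells, beside 5.26% and 5.57% of all genes. None was called higher in UT cells and 1 (*Atp2b4*) after IL-1α, beside 3.51% and 4.16% of all genes. The pair called higher in the IL-1α response of iMK2-KO+GFP cells was *Atp2b4*, a calcium pump, with 6 and 32 normalized counts, and the pseudogene *Rpl29-ps2*, with 4 and 16. *Flot1*, which encodes a membrane raft protein and lies 307 bases from *Ier3*, had 325 and 306 normalized counts in iMK2-KO+GFP cells and 537 and 529 in iMK2-KO+MK2 cells, so that it was lower in iMK2-KO+GFP cells and did not share the rise of *Ier3*. *Cacna1a*, a calcium channel gene next to *Ier2*, had 36 and 45 normalized counts in iMK2-KO+GFP cells against 837 and 984 in iMK2-KO+MK2 cells.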
